A study of Mus musculus with 4 samples.

Results

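Around each central vein of the liver lobule, a thin layer of hepatocytes receives Wnt signals and expresses a characteristic set of genes. A set of 10 such genes was examined: Glul, Oat, Rhbg, Slc1a2, Axin2, Lgr5, Tbx3, Cyp2e1, Lect2 and Gulo. They were chosen by name, with earlier results of these data known. All 10 were found among the 50584 gene symbols of the count tables. Liver mRNA of wild-type DBA/2J males was compared with that of wild-type C57BL/6J males, with 2 mice per strain. All animals were 14 weeks old and ate chow. The strains are inbred, so the strain comparison covers their whole genomes, and no allele was introduced into either. The series itself concerns Mlycd, the malonyl-CoA decarboxylase gene, in DBA/2J.

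Near the central vein, Wnt ligands and R-spondins from central vein endothelium act on Frizzled and LRP receptors of the neighbouring hepatocytes. The signal spares beta-catenin from a destruction complex built on APC and axin, and beta-catenin then activates genes together with TCF factors bound to DNA. Away from the central vein the signal is weak, and periportal hepatocytes express a different set of genes. The pericentral layer is known for making glutamine from ammonia that escaped the urea cycle and for oxidising ethanol and drugs.

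The 4 libraries held 48096706 to 52520737 counts assigned to genes. Values are counts per 1000000 (CPM) on library sizes scaled by the trimmed mean of M-values (TMM), unless named otherwise. Markers of hepatocytes, such as albumin, summed to 93219 to 108273 CPM, and 0 of 10 were called different between strains by edgeR. C57BL/6J replicate 1 stood apart in the sum of 20 acute phase genes. It was 41250 CPM there against 23349 CPM in C57BL/6J replicate 2 and 22221 and 18858 CPM in DBA/2J. Not every gene of the list was highest there: Apcs stood at 108.5 CPM against 198.4 and 193 CPM in DBA/2J. Neutrophil markers summed to 13.2 CPM in C57BL/6J replicate 1 and to 2.404 to 3.15 CPM in the other libraries. Cholangiocyte markers summed to 45.7 and 45.8 CPM in DBA/2J against 95.4 and 71.2 CPM in C57BL/6J. Most of this gap lay in Spp1, at 13.6 and 14.4 CPM in DBA/2J against 61.8 and 40.4 CPM in C57BL/6J. It was the 1 marker called of the 7 tested in this list. Red cell markers summed to 343.4 and 293.9 CPM against 172.3 and 210.2 CPM, and T, B and NK cell markers to 9.14 and 9.22 CPM against 5.33 and 3.87 CPM. Here too single genes held most of the gap. Alas2 stood at 259.2 and 220.7 CPM against 109.1 and 143.3 CPM, and Cd4 at 7.359 and 7.032 CPM against 1.395 and 2.485 CPM.

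Of the 10 genes, 2 were called lower in DBA/2J and 0 higher by edgeR's quasi-likelihood test (adjusted p below 0.05), which is 20% of them. Over all 15647 tested genes, 18.2% were called, 8.87% lower and 9.29% higher, so the share among the 10 genes was near that of all genes. The called genes were Glul and Oat. Over all genes, fewer were called when either DBA/2J library was left out, and more when either C57BL/6J library was left out. Calls lost or gained in such fits below are to be read beside this. The CPM values of the strains did not overlap for 4 of the 10 genes (40%), against 63.8% of all tested genes. The median log2 difference, DBA/2J over C57BL/6J, was -0.12 for the 10 genes and 0.01 over all tested genes. The plot of CPM by library shows all 40 values.

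**Figure D1:**
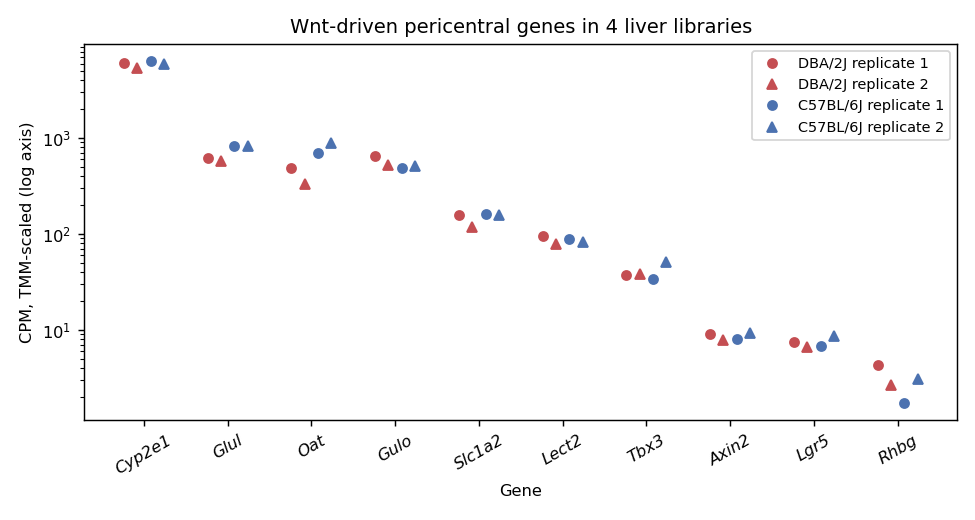
CPM of the 10 Wnt-driven pericentral genes (x axis, ordered by mean level) in each liver library on a log y axis; each point is 1 library, red for DBA/2J and blue for C57BL/6J. Glul and Oat have both DBA/2J points below both C57BL/6J points, whereas the points of Axin2, Lgr5, Cyp2e1, Lect2, Tbx3 and Rhbg are intermixed.

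Promoter sequences are given for the 2 called genes, for Axin2, the standard feedback target of the pathway, and for Lect2, which carries a match to the TCF motif. They are the 250 bases before the RefSeq start of each gene (GRCm38.p6), read 5′ to 3′ along the gene. Capitals mark a match to the TCF motif, searched on both strands as CTTTGAT, by its variant CTTTGAA, by its variant CTTTGTT and by its variant CTTTGTA. No other motif was searched.
Glul promoter, chr1:153899679-153899928, forward strand: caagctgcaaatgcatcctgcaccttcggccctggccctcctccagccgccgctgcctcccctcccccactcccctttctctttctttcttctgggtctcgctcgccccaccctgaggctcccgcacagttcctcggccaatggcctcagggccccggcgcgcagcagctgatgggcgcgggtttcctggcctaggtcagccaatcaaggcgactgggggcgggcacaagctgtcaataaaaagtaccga
Oat promoter, chr7:132576399-132576648, reverse strand: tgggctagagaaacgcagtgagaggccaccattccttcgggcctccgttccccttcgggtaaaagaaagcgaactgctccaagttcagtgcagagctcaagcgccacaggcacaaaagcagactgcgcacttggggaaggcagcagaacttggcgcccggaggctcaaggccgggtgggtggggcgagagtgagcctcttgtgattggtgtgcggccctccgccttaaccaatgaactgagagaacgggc
Axin2 promoter, chr11:108920099-108920348, forward strand: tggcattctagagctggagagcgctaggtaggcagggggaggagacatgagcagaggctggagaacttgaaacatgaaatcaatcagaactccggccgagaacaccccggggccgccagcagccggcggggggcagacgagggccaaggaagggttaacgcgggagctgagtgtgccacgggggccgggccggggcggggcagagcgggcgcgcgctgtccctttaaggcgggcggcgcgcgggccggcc
Lect2 promoter, chr13:56548539-56548788, reverse strand: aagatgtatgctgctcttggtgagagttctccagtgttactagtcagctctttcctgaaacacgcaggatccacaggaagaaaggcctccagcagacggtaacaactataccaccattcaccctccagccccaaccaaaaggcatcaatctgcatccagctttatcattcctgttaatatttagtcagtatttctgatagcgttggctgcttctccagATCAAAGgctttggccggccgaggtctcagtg
RefSeq windows were found for 6 of the 10 genes. A match was present in 3 of these, those of Slc1a2, Cyp2e1 and Lect2, and in 14.8% of all 32851 promoter windows of this length. In Lect2 the motif lay on the opposite strand and began 32 bases before the start. The windows of Slc1a2 (chr2:102706188-102706437) and Cyp2e1 (chr7:140763569-140763818) each precede a start that lies inside the span of the gene in the count tables. The windows of Glul, Oat and Axin2 held no match. The match is a description of these letters, and enhancers elsewhere were not searched.

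Glul, Oat, Slc1a2 and Rhbg handle glutamine, glutamate and ammonia. Glul encodes glutamine synthetase, which joins ammonia to glutamate, and its protein is confined to the cells closest to the central vein. On the GRCm38 build the gene spans chr1:153899944-153909723 on the forward strand. In replicates 1 and 2, Glul had 30192 and 31904 counts for DBA/2J and 40391 and 41453 counts for C57BL/6J, or 625.8 and 576.7 CPM against 828.8 and 830.6 CPM. Both DBA/2J libraries were lower than both C57BL/6J libraries, and the C57BL/6J pair was nearly identical. The DBA/2J mean was 601.3 CPM ± 34.7 (SD, n = 2), and the C57BL/6J mean was 829.7 CPM ± 1.28 (SD, n = 2). Glul was 1.38-fold lower in DBA/2J, a log2 difference of -0.46 ± 0.10 (SE), with an edgeR adjusted p of 0.0332. Glul was not called when DBA/2J replicate 1 (-0.54) or replicate 2 (-0.41) was left out, fits in which calls over all genes fell too. In those fits the lone DBA/2J library is assumed to vary like the C57BL/6J pair. In whole liver, fewer cells of a type and less RNA per cell cannot be told apart.

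Glul has an annotated copy, Glns-ps1, that is 96.8% identical over 1126 bases. A further copy, AC134576.3 (95.83% over 336 bases), was not analysed here, and no counts of it were added. The counts of Glns-ps1 were 639 and 694 for DBA/2J and 8 and 10 for C57BL/6J, so it was higher in the strain in which Glul was lower. These counts are small beside those of Glul. With the counts of Glns-ps1 added to Glul, an alternative chosen after its values were seen, the log2 difference was -0.43 (edgeR adjusted p = 0.0401). Reads that match several places went uncounted under the counting program's usual behaviour, and DBA/2J reads that differ from the reference can be placed elsewhere; the part of either in the Glul difference was not tested.

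Oat encodes the mitochondrial enzyme ornithine aminotransferase, which moves the amino group of ornithine to 2-oxoglutarate and so feeds glutamate to the same cells. On the same build it spans chr7:132557478-132576398 on the reverse strand. Oat had 23433 and 18212 counts in DBA/2J and 33752 and 44461 counts in C57BL/6J, or 485.7 and 329.2 CPM against 692.5 and 890.8 CPM. The strains did not overlap, but the replicates of each strain differed more than for Glul, by 1.48-fold in DBA/2J and 1.29-fold in C57BL/6J. Oat was 1.94-fold lower in DBA/2J, a log2 difference of -0.96 ± 0.22 (SE), with an edgeR adjusted p of 0.0367. The ratio of DBA/2J to C57BL/6J had a 95% interval from 0.353 to 0.75, so the size of the difference was only loosely set. The call was lost when DBA/2J replicate 1 (-1.28) or replicate 2 (-0.71) was left out. It was also lost when genes with low counts were kept in the test (-0.96, edgeR adjusted p = 0.0855). Calls over all genes fell in each of these fits. No other annotated transcript matched Oat over 200 bases at 95% identity.

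Slc1a2 and Rhbg encode the transporters of this group and did not pass the test. Slc1a2 (chr2:102658659-102790784, forward strand), also known as GLT-1, brings glutamate into the cell. It stood at 156 and 116.7 CPM in DBA/2J and 161.6 and 157.2 CPM in C57BL/6J. Both DBA/2J values lay below both C57BL/6J values, the higher of them by less than the DBA/2J pair differed. The log2 difference was -0.23 (95% interval -0.58 to 0.13, edgeR adjusted p = 0.321). Rhbg (chr3:88242874-88254709, reverse strand) encodes an ammonia channel of the Rh family and was among the lowest of the 10 genes, with 208 and 146 counts in DBA/2J and 84 and 152 counts in C57BL/6J. Its strains overlapped, and its interval was the widest of the 10, from -0.38 to 1.46 around a log2 value of 0.54 (edgeR adjusted p = 0.354). The low Rhbg library was C57BL/6J replicate 1, the library with high acute phase genes; without it the log2 value was 0.13, and whether the acute phase bears on Rhbg was not tested. Of the 1937 exon bases of Rhbg, 1190 are shared with the symbol Gm38392, and reads there went uncounted under the usual behaviour of the counting program.

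Axin2, Lgr5 and Tbx3 are Wnt target genes in several tissues, and none of the 3 was called. Axin2 (chr11:108920349-108950783, forward strand) encodes a scaffold of the destruction complex and is induced by the signal it dampens. It had 439 and 428 counts in DBA/2J and 393 and 457 counts in C57BL/6J, or 9.10 and 7.74 CPM against 8.06 and 9.16 CPM. The strains overlapped, and each pair differed by more than the strain means did. The log2 difference was -0.03 (95% interval -0.42 to 0.35, edgeR adjusted p = 0.898), so a change of the size seen in Oat lay outside the interval of Axin2. Lgr5 (chr10:115450311-115587780, reverse strand) encodes a receptor for R-spondins that strengthens Wnt signals. It had 359 and 369 counts in DBA/2J and 326 and 433 counts in C57BL/6J, with a log2 difference of -0.12 (95% interval -0.57 to 0.32, edgeR adjusted p = 0.667). Its DBA/2J values lay within or at the edge of the C57BL/6J range.

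Tbx3 (chr5:119670669-119684724, forward strand) encodes a T-box transcription factor that acts downstream of beta-catenin in liver. It stood at 36.9 and 37.8 CPM in DBA/2J and 33.6 and 51.1 CPM in C57BL/6J. The DBA/2J values lay between those of the C57BL/6J pair, which differed by 1.52-fold. The log2 difference was -0.18 (95% interval -0.67 to 0.30, edgeR adjusted p = 0.553). Its direction rested on which C57BL/6J library was compared: without C57BL/6J replicate 1 it was -0.46 and called lower (edgeR adjusted p = 0.00815), and without C57BL/6J replicate 2 it was 0.15 (0.256). C57BL/6J replicate 1 is the library with high acute phase genes, and the part of these in Tbx3 was not tested.

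Cyp2e1, Lect2 and Gulo encode products of drug, secreted protein and vitamin pathways. Cyp2e1 (chr7:140763739-140774987, forward strand) encodes the cytochrome P450 that oxidises ethanol and acetaminophen. It stood at 6073 and 5367 CPM in DBA/2J and 6361 and 5984 CPM in C57BL/6J, with overlapping strains and a log2 difference of -0.11 (95% interval -0.66 to 0.44, edgeR adjusted p = 0.762). Lect2 (chr13:56542460-56548538, reverse strand) encodes a secreted protein first known as a leukocyte chemotactic factor. It stood at 95.8 and 78.0 CPM in DBA/2J and 88.2 and 81.6 CPM in C57BL/6J, and both C57BL/6J values lay inside the DBA/2J range. Its log2 difference was 0.03 (95% interval -0.26 to 0.33, edgeR adjusted p = 0.869), so a change as large as that of Glul or Oat lay outside its interval.

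Gulo (chr14:65986787-66009210, reverse strand) encodes the last enzyme of vitamin C synthesis, which mice retain and humans have lost. It stood at 648.9 and 524.1 CPM in DBA/2J and 485.1 and 516.4 CPM in C57BL/6J. Gulo was the 1 gene of the 10 with both DBA/2J values above both C57BL/6J values, although the lower DBA/2J value exceeded the higher C57BL/6J value by less than the spread within either strain. The log2 difference was 0.23 (95% interval -0.10 to 0.55, edgeR adjusted p = 0.271). The intervals of the 8 genes that were not called all include 0, as the plot of differences shows, and they do not show that the strains are alike.

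**Figure D2:**
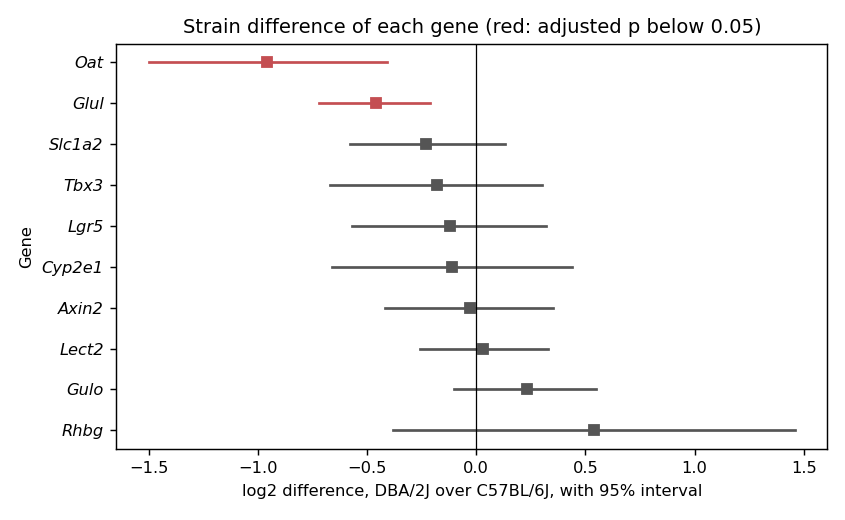
Log2 difference of each gene, DBA/2J over C57BL/6J (x axis), with its 95% interval from edgeR; rows are the 10 genes, red where the adjusted p was below 0.05. Oat (-0.96) and Glul (-0.46) lie to the left of 0 with their whole interval, and Rhbg has the widest interval.

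Levels of different genes were set side by side as transcripts per 1000000 (TPM), which divide counts by exon length. Cyp2e1 stood far above the others at 6767 to 7442 TPM over the 4 libraries and was the 15th most abundant symbol. Oat followed at 389.1 to 921.2 TPM, Gulo at 509.7 to 757.7 TPM and Glul at 484.1 to 610.0 TPM, ranges that overlap one another. With Rhbg set aside, Lect2 stood at 227.1 to 288.7 TPM, Slc1a2 at 24.8 to 31.4 TPM and Tbx3 at 12.1 to 18.9 TPM, each apart from its neighbours. Axin2 (3.48 to 4.37 TPM) and Lgr5 (1.55 to 2.06 TPM) followed. Rhbg, at 2.12 to 5.89 TPM, could not be placed in this order. Its TPM used all 1937 exon bases, although reads on the 1190 shared bases went uncounted under the counting program's usual behaviour, so it is too low. The order of Glul and Oat differed between libraries: the TPM ratio of Glul to Oat was 0.915 and 1.24 in DBA/2J and 0.85 and 0.662 in C57BL/6J. The 10 genes together took 0.742% to 0.84% of all counts, most of it Cyp2e1.

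Components of the Wnt pathway were examined in 5 lists of 75 genes in all, of which 63 were tested. Of these, DBA/2J had 8 called higher and 1 called lower (14.3%, against 18.2% of all tested genes). Their median log2 difference was 0.23 against 0.01, and 77.8% lay above 0 against 50.7% of all tested genes. These numbers depended on single libraries. As over all genes, fewer were called higher when either DBA/2J library was left out, and more when either C57BL/6J library was left out. More were also called lower when either C57BL/6J library was left out. Library totals in place of TMM gave 13 higher genes, and keeping genes with low counts gave 2. Exon lengths differed as well, with a median of 4728 bases in the tested Wnt genes and of 3715 bases over all tested genes. Tested genes at least that long had a median log2 of 0.10, and shorter ones of -0.06; the part of length in the Wnt genes was not tested.

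Among 10 tested genes for ligands and their secretion, Wnt9b and Wnt5a were called higher and 0 lower. Wnt9b, a ligand of central vein endothelium, had 138 and 140 counts in DBA/2J and 47 and 71 counts in C57BL/6J, a log2 difference of 1.17 ± 0.28 (edgeR adjusted p = 0.0405). Wnt5a, a ligand best known outside the beta-catenin branch, had 120 and 171 counts in DBA/2J and 37 and 41 counts in C57BL/6J, a log2 difference of 1.82 ± 0.26 (edgeR adjusted p = 0.0107). In both genes the strains were well separated, at low counts. Neither call held when either DBA/2J library was left out (the highest edgeR adjusted p was 0.278 for Wnt9b and 0.126 for Wnt5a). Wnt9b was also not called when genes with low counts were kept, whereas Wnt5a was. Rspo3, the R-spondin of the central vein, had 142 and 172 counts in DBA/2J and 132 and 96 in C57BL/6J (0.39, edgeR adjusted p = 0.316). Wnt2, the other ligand of this endothelium, had 64 and 129 counts in DBA/2J and 88 and 68 in C57BL/6J (0.22, edgeR adjusted p = 0.701). Without DBA/2J replicate 2 its log2 difference was -0.26. Markers of central vein endothelium, Wnt2, Wnt9b and Rspo3 among them, summed to 15.2 and 18.8 CPM in DBA/2J and 15.9 and 14.8 CPM in C57BL/6J, with overlapping strains. Of the other markers, Thbd was lower in DBA/2J (2.322 and 3.055 against 4.391 and 3.767 CPM). Cdh13 was higher (2.28 and 2.766 against 2.031 and 1.403 CPM), Kit overlapped, and none of these was called. The general endothelial markers summed to 239.5 and 289.3 CPM in DBA/2J against 251.4 and 208.0 CPM in C57BL/6J, and stellate and fibroblast markers to 268.3 and 326.4 against 224.4 and 159.4 CPM; the part of cell numbers in the ligand differences was not tested.

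On the receiving side, Lrp5, a Wnt co-receptor, was the 1 receptor gene of 13 tested that was called. It stood at 124.2 and 104.3 CPM in DBA/2J and 60.1 and 81.9 CPM in C57BL/6J (0.69 ± 0.17, edgeR adjusted p = 0.0438). The R-spondin receptor gene Lgr4 was more abundant than Lgr5, at 27.8 to 40.4 TPM against 1.55 to 2.06 TPM, with overlapping strains in CPM (0.20, edgeR adjusted p = 0.274). Of 14 relay and destruction complex genes, Apc and Ctnnb1 were called higher and 0 lower. Ctnnb1, which encodes beta-catenin, stood at 225.6 and 215.8 CPM in DBA/2J against 173.8 and 180.0 CPM in C57BL/6J, a log2 difference of 0.32 ± 0.08 (edgeR adjusted p = 0.0449). Apc, the core of the complex that degrades it, differed by 0.54 ± 0.12 (edgeR adjusted p = 0.0306). Transcripts of both genes stood higher in DBA/2J. Tcf7l2, a gene for a TCF factor, was the 1 nuclear factor gene of 10 that was called, at 20.9 and 23.5 CPM in DBA/2J against 15.0 and 16.7 CPM in C57BL/6J (0.49 ± 0.12, edgeR adjusted p = 0.0412). The calls of Lrp5, Apc, Ctnnb1 and Tcf7l2 did not hold when either DBA/2J library was left out (highest edgeR adjusted p 0.285, 0.267, 0.334 and 0.294) or when genes with low counts were kept. That of Ctnnb1 was also lost under further settings, among them limma-voom, DESeq2's size factors, the older form of the quasi-likelihood fit and the fit without C57BL/6J replicate 1.

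Of 16 tested feedback targets and inhibitors, Dkk4 and Sfrp1 were called higher and Ccnd1 lower. Ccnd1 encodes cyclin D1, which drives entry into the cell cycle. It had 201 and 258 counts in DBA/2J and 832 and 924 counts in C57BL/6J, a log2 difference of -2.01 ± 0.13 (edgeR adjusted p = 0.00101). Dkk4, a secreted Wnt inhibitor gene, had 95 and 115 counts in DBA/2J and 4 and 3 counts in C57BL/6J, so its summed counts, scaled to library size, differed 28.6-fold, with 13.6 to 71.9 as the 95% interval from counting alone (edgeR adjusted p = 0.00203). These 2 were the Wnt genes whose calls held with any library left out. Sfrp1, another secreted inhibitor gene, differed by 1.32 ± 0.34 at 79 and 92 counts against 41 and 24 (edgeR adjusted p = 0.0494). It was not called when either DBA/2J library or C57BL/6J replicate 2 was left out (edgeR adjusted p at most 0.272) or under several other settings. Znrf3 and Rnf43 encode the ligases that remove Frizzled receptors and, like Axin2, are induced by the signal. Znrf3 counts were 927 and 980 for DBA/2J and 668 and 729 for C57BL/6J (0.38, edgeR adjusted p = 0.0636). Rnf43 counts were 1944 and 2220 for DBA/2J and 1072 and 2323 for C57BL/6J (0.23, edgeR adjusted p = 0.655), with the low value again in C57BL/6J replicate 1, without which the log2 difference was -0.22.

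**Figure D3:**
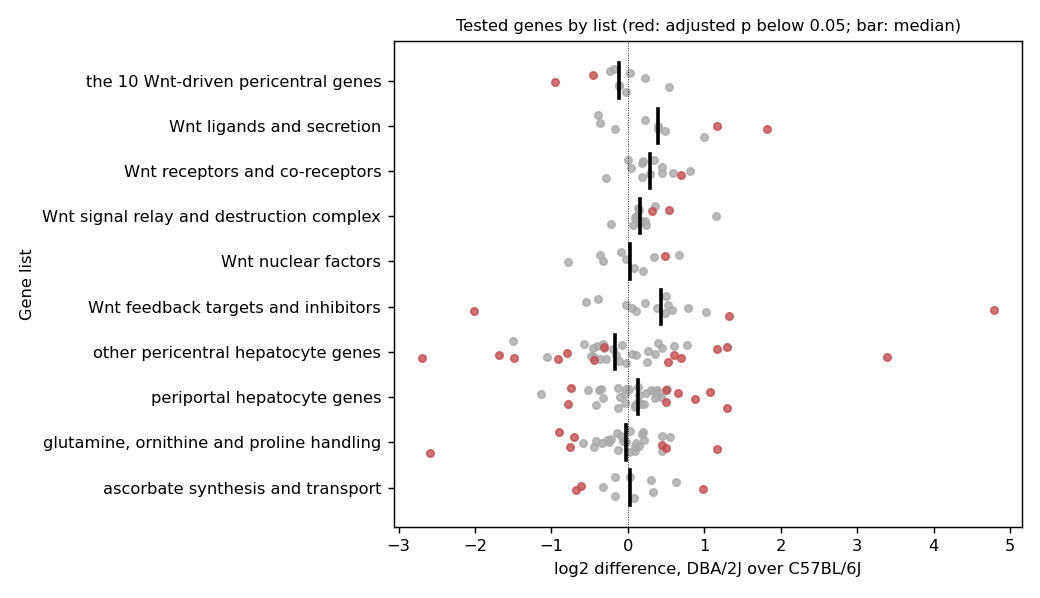
Log2 differences of the tested genes of each list, DBA/2J over C57BL/6J (x axis); each point is 1 gene, red where the edgeR adjusted p was below 0.05, and the black bar is the median of the list. The medians lie between -0.18 and 0.43, and called genes lie on both sides of 0 in the pericentral list (6 higher, 7 lower).

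Other pericentral hepatocyte genes went in both directions. Of 38, all tested, 6 were called higher and 7 lower (34.2%, against 18.2% of all tested genes), with a median log2 of -0.18. The lower genes included Por, the electron donor of the cytochrome P450 enzymes, at 214.5 and 231.1 CPM in DBA/2J against 410.5 and 429.7 CPM in C57BL/6J (-0.91 ± 0.09, edgeR adjusted p = 0.00324), and Cyp2c50 and Mup17 (-1.49 and -2.69). The higher genes included Avpr1a, a vasopressin receptor gene, at 38.2 and 31.7 CPM against 15.1 and 13.2 CPM (1.30 ± 0.13, edgeR adjusted p = 0.0038), and Cyp2c29, Gstm3 and Gucy2c (0.70, 1.17 and 3.39). Cyp2c, Mup and Gstm genes have close copies that can share reads. As over all genes, fewer were called in each direction when either DBA/2J library was left out. More were called higher without C57BL/6J replicate 2, and more lower when either C57BL/6J library was left out. Of the named genes, the Mup17 call held with any library left out. The calls of Por, Cyp2c29, Gstm3 and Gucy2c were lost when either DBA/2J library was left out. Cyp2c50 had an edgeR adjusted p of 0.0511 when DBA/2J replicate 2 was left out, and Avpr1a one of 0.0648 when DBA/2J replicate 1 was left out. Both calls held in the other fits with 1 library left out.

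Periportal hepatocyte genes, from the opposite end of the lobule, were called higher in 6 of 37 cases and lower in 2 (21.6%), with a median log2 of 0.13. Higher were Etnppl (1.08), Gldc (0.88), Hsd17b6 (0.65), Apoa4 (1.30), Ftcd (0.50) and Slc7a2 (0.50), and lower were Ifitm3 (-0.75) and Ctsc (-0.78), with edgeR adjusted p from 0.0168 to 0.0438. Etnppl and Gldc, which break down phosphoethanolamine and glycine, stood at 416.5 and 422.7 CPM against 156.9 and 238.9 CPM, and at 296.7 and 254.6 CPM against 121.8 and 177.1 CPM. Periportal genes of ammonia metabolism included 2 that were not called: Gls2, which releases ammonia from glutamine, stood at 0.15 and the urea cycle gene Cps1 at 0.09 on the log2 scale, with overlapping strains (edgeR adjusted p = 0.551 and 0.809). None of the 8 calls held when either DBA/2J library was left out, fits in which calls over all genes fell too. More were called higher without C57BL/6J replicate 2, and more lower when either C57BL/6J library was left out. The list summed to 29269 and 29168 TPM in DBA/2J and 22340 and 26210 TPM in C57BL/6J, lowest in the library with high acute phase genes, while the 10 pericentral genes summed to 8754 to 9589 TPM with overlapping strains.

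Around Glul and Oat, 31 genes of glutamine, ornithine and proline handling were tested, 5 of them also in the periportal list. Of the 31, 3 were called higher and 4 lower (22.6%), with a median log2 of -0.02. Lower genes included Odc1, which turns ornithine into putrescine, at 41.1 and 37.8 CPM against 68.3 and 78.7 CPM (-0.90 ± 0.10, edgeR adjusted p = 0.00539), Prodh2 (-0.71) and Asns, the asparagine synthetase gene that uses glutamine, with 25 and 23 counts against 107 and 170 (-2.59). Higher were the neutral amino acid transporter gene Slc1a4 (1.16), Slc38a7 (0.45) and Slc7a2. These calls were lost when either DBA/2J library was left out, fits in which calls over all genes fell too. When either C57BL/6J library was left out, more were called in each direction.

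Beside Gulo, 11 genes of ascorbate synthesis and transport were tested, and 1 was called higher and 2 lower (27.3%), with a median log2 of 0.03. Slc23a1, the vitamin C transporter gene, stood at 145.0 and 149.1 CPM in DBA/2J against 62.5 and 86.6 CPM in C57BL/6J (0.98 ± 0.16, edgeR adjusted p = 0.0141). Gsto1, a dehydroascorbate reductase gene, stood at 73.2 and 73.3 CPM against 111.9 and 122.6 CPM (-0.68 ± 0.08, edgeR adjusted p = 0.00669). Ugt1a1, a glucuronosyltransferase gene that shares exons with its neighbours, stood at -0.62. Rgn, which encodes the gluconolactonase of the step before Gulo, was not called (-0.33, edgeR adjusted p = 0.129). None of these calls held when either DBA/2J library was left out, fits in which calls over all genes fell too. More genes were called higher when either C57BL/6J library was left out.

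**Figure D4:**
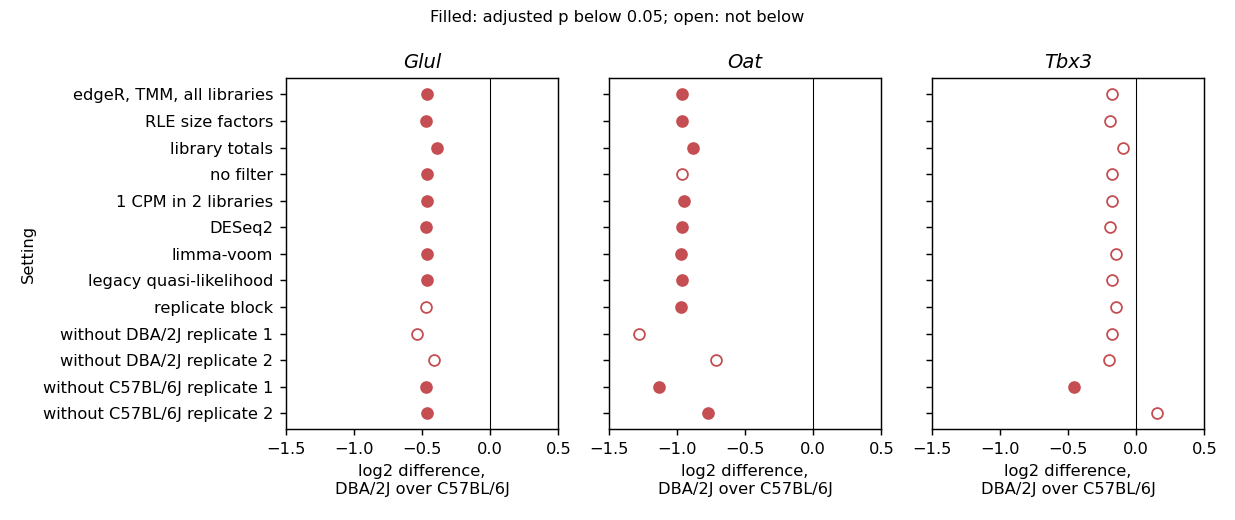
Log2 difference, DBA/2J over C57BL/6J (x axis), of Glul, Oat and Tbx3 under each setting (rows); filled points had an adjusted p below 0.05. Glul and Oat stay left of 0 in all 13 rows and lose their calls without either DBA/2J library, and Tbx3 changes side between the fits without C57BL/6J replicates 1 and 2.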

How the data were processed

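Poly(A)-selected liver RNA was sequenced as single-end reads of 100 bases, per the labels' protocols. The deposited values are whole-number read counts per gene symbol. Per the file headers, the authors made them with featureCounts 2.0.1 on exons of Ensembl release 88 (GRCm38); STAR 2.4.0g1 and featureCounts 1.5.2 stand in the submitters' processing notes. The headers carry the paired-end option and none for strand, multiple alignments or overlapping genes. Reads of both strains were counted on a C57BL/6J reference.

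Strain labels set the groups, and titles gave the replicate numbers. Counts were fitted over all genes with edgeR 4.0.16 (R 4.3.3; glmQLFit with legacy=FALSE, glmQLFTest, TMM, filterByExpr minimum count 10, strain only), with Benjamini-Hochberg adjustment over 15647 tested genes. Standard errors and 95% intervals came from the F statistic. The fit was also run on simulated counts with the same variability for every gene and no outlying library. That run does not show how the fit performs on these data. Total counts per library ranged from 48096706 to 52520737; counting intervals cover counting error only. Alternatives were 2 other scalings, 2 filters, DESeq2 1.42.0, limma-voom (3.58.1), the older quasi-likelihood form, a replicate term and each library left out. Copies were sought with blastn 2.17.0 (95% identity over 200 bases) among GENCODE transcripts.

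Named were all 10 genes, fixed Wnt genes and, of each list, up to 4 with the lowest adjusted p or those behind a count of 5 or fewer. Cyp2c29, Gstm3, Gucy2c, Apoa4, Ftcd, Cps1, Gls2 and Rgn were named after their values were seen. A called gene of the glutamine list is not reported here by name. Members and lists were chosen with earlier results of these data known.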

Additional observations from a re-analysis of the deposited data

How the results depend on the processing

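Glul and Oat were lower in DBA/2J under all 12 alternatives and were called in 9 of them each. Neither was called without either DBA/2J library, which left 0 of the 10 genes called lower (0 to 3 over the fits with 1 library left out, the 3 including Tbx3). With no filter Oat was not called (-0.96, leaving 1 gene lower). The labels do not say that replicate numbers mark a litter, batch or day, and the deviations of same-numbered libraries correlated at -0.064 over 15647 genes; with the replicate block Glul was not called (-0.47, adjusted p = 0.0543, leaving 1 gene lower), nor were Ctnnb1, Wnt9b and Sfrp1. With 1 library left out, log2 values ranged from -0.54 to -0.41 for Glul, -1.28 to -0.71 for Oat, -0.46 to 0.15 for Tbx3, -0.17 to 0.08 for Axin2, -0.30 to 0.07 for Lgr5 and -0.14 to 0.17 for Lect2. Library totals turned Axin2 to 0.04. Slc1a2, Rhbg, Cyp2e1 and Gulo kept their direction and were not called under any alternative.

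Calls over all genes numbered 2842, 1516 with no filter, and 292 to 4905 with 1 library left out. Higher Wnt genes numbered 13 with library totals, 2 with no filter and 1 to 19 with 1 library left out. Lower Wnt genes numbered 2 in DESeq2, 2 with the replicate block and 1 to 4 with 1 library left out. Lower pericentral genes of the wider list numbered 12 in DESeq2, 4 with no filter and 1 to 13 with 1 library left out, and higher ones 0 to 10. Periportal genes with no filter were 0 higher and 1 lower, with DESeq2 5 lower, and with 1 library left out 0 to 13 higher and 0 to 6 lower. The cause of these changes was not tested. Rhbg rests on 84 to 208 counts per library.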
